A study of Rattus norvegicus with 12 samples.

Results

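The genes described here are 9 markers of mural cells, the smooth muscle cells and pericytes that wrap brain vessels, in RNA sequencing of rat brain: Acta2, Tagln, Myh11, Des, Pdgfrb, Rgs5, Abcc9, Kcnj8 and Cspg4. They were taken by name from a table of read counts with 17335 distinct gene names in 12 libraries, and all 9 of the 9 were present and passed the filter on low counts. The libraries came from male Sprague-Dawley rats of postnatal day 60, with 3 rats per group according to the series design. Rats of the BDL AAV-VEGFC group had their bile duct ligated (bile duct ligation, BDL, a surgical block of bile outflow used to model liver disease and its effects on the brain) with a modelling time of 4 weeks, and were given, in 20 µl, an adeno-associated viral vector (AAV) that carries the gene for VEGF-C, vascular endothelial growth factor C, through a needle into the cisterna magna, a fluid space below the cerebellum. Rats of the BDL AAV-GFP group had the same ligation and injection with an AAV coding for green fluorescent protein. Rats of the BDL group had the ligation and no vector listed, and sham rats served as controls with neither. The sources used here name neither the promoter nor the serotype of the vectors. The series calls the tissue middle brain. Th, the enzyme that marks the dopamine neurons of the midbrain, lay between 0.652 and 1.70 CPM (read counts divided by library size and put on a common scale) in all 12 libraries, and 6 neuron markers summed to between 4878 and 7512 CPM.

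Smooth muscle cells surround arteries and arterioles and set vessel width by contraction, whereas pericytes sit along capillaries inside the same basement membrane as the endothelium. Acta2 (smooth muscle actin), Myh11 (smooth muscle myosin heavy chain) and Tagln (transgelin, an actin-binding protein) belong to the contractile apparatus, and their genes are known targets of serum response factor (SRF) and its partner myocardin. Des codes for desmin, an intermediate filament of muscle that pericytes also make. Pdgfrb is the receptor through which endothelial platelet-derived growth factor B recruits mural cells, Rgs5 damps G protein signalling in pericytes, Kcnj8 and Abcc9 are the pore and the regulatory subunit of the vascular ATP-sensitive potassium (KATP) channel, and Cspg4 codes for the proteoglycan NG2. Cspg4 and Pdgfrb are not confined to mural cells, since oligodendrocyte precursors make NG2 and fibroblasts make the receptor.

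Acta2 and Des moved together, and Rgs5 did not move with them in AAV-GFP against BDL. In AAV-VEGFC against BDL, all libraries of the vector group lay above all BDL libraries for Rgs5 as well. The stretches of 250 bases before the annotated start sites of these genes are shown because the contractile genes have known SRF sites (CArG boxes) near their starts. They are from RefSeq on build GRCr8, 5′ to 3′ on the strand of the gene, for Acta2 at chr1:241172504-241172753 (minus strand), for Des at chr9:84299376-84299625 (plus strand) and for Rgs5 at chr13:84380827-84381076 (plus strand). Capitals mark matches, on either strand, to the CArG box with at most 1 G or C in its A/T core, to CATTCC and to TATAA.
Acta2: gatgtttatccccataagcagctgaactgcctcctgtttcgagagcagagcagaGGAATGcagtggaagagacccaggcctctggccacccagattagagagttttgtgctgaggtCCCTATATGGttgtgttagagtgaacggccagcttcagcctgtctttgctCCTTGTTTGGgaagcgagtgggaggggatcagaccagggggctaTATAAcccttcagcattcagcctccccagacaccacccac
Des: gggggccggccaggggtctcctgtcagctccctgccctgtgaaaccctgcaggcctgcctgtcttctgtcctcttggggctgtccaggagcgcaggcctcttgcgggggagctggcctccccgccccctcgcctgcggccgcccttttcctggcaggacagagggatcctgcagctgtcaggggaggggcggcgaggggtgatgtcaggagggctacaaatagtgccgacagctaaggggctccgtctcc
Rgs5: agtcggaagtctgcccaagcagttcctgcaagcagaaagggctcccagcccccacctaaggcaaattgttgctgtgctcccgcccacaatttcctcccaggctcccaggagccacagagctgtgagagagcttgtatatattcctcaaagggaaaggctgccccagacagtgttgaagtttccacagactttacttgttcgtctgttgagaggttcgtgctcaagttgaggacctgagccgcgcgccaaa
The Acta2 stretch held 2 matches to the CArG box with 1 G or C in the core, CCCTATATGG at -134 to -125 and CCTTGTTTGG at -84 to -75, counted from the start site. It also held a CATTCC match read on the other strand (GGAATG, -196 to -191), which is the core of TEAD factor sites, and a TATAA at -40 to -36. A CArG box with at most 1 G or C stood in 8.08% of 33469 promoter stretches of the same length, CATTCC in 12.1% and TATAA in 24.0%. The stretches of Des, Rgs5, Abcc9, Kcnj8 and Cspg4 held none of these letters. A match describes letters in this window and nothing more, and Tagln, Myh11 and Pdgfrb are named only.

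Library totals ranged from 40296297 to 51669067 counts, and the lowest count of any of the 9 genes in any library was 98 (Des in BDL 3). Levels are given as CPM with library sizes scaled by trimmed means (TMM), which do not allow for gene length, so levels are compared between libraries and not between genes. In the RefSeq annotation of GRCr8, Des overlaps a long noncoding RNA and Cspg4 overlaps Cimap1c, whose older symbol Odf3l1 had 0.151 to 0.759 CPM, and reads of overlapping genes cannot be told apart without strand. Kcnj8 and Abcc9 are neighbours in that annotation. Some libraries stood apart within their group: AAV-GFP 1 differed from its group mates with a chi-square per degree of freedom of 72.1 to 94.2, against 11.9 between AAV-GFP 2 and 3, and AAV-VEGFC 1 with 220 to 227, against 29.1 between AAV-VEGFC 2 and 3. Sham 2 was set apart by choroid plexus RNA, the list of which summed to at most 287 CPM in sham libraries and at most 68.6 CPM in the other groups. The ribosomal RNA Rn18s took 0.430% to 1.16% of counts in the 6 vector libraries and 0.137% to 0.306% in the BDL and sham libraries.

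Acta2, Tagln, Myh11 and Des had higher levels in all 6 libraries of ligated rats given a vector than in all 6 libraries without one. No pericyte gene separated the libraries in that way, although Rgs5 and Kcnj8 were highest in the AAV-VEGFC libraries. Acta2 was measured at 17.4, 17.3 and 10.6 CPM in AAV-VEGFC libraries 1 to 3, at 28.1, 15.9 and 14.8 CPM in AAV-GFP libraries, at 4.44, 10.01 and 7.55 CPM in BDL libraries and at 4.71, 7.09 and 7.82 CPM in sham libraries. Every vector library lay above every BDL and sham library, and AAV-GFP 1 was the highest. Tagln stood at 29.7, 18.8 and 14.7 CPM in AAV-VEGFC libraries, 35.5, 19.003 and 19.7 CPM in AAV-GFP libraries, 8.73, 13.5 and 10.6 CPM in BDL libraries and 8.44, 10.5 and 10.6 CPM in sham libraries. Library 1 was the highest in both vector groups, and the vector libraries again did not overlap with the rest. Myh11 stood at 29.2, 27.1 and 20.9 CPM in AAV-VEGFC libraries, 36.0, 22.8 and 24.2 CPM in AAV-GFP libraries, 11.9, 19.6 and 16.1 CPM in BDL libraries and 12.6, 14.6 and 17.1 CPM in sham libraries. Its highest BDL library, BDL 2, came within a short distance of AAV-VEGFC 3 but stayed below it. Des stood at 7.64, 4.75 and 4.11 CPM in AAV-VEGFC libraries, 11.4, 5.04 and 5.52 CPM in AAV-GFP libraries, 2.30, 3.72 and 1.97 CPM in BDL libraries and 2.11, 2.36 and 2.46 CPM in sham libraries. For each of the 4 genes the 6 vector libraries were the 6 highest of the 12, as for 7.92% of all tested genes.

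**Figure D1:**
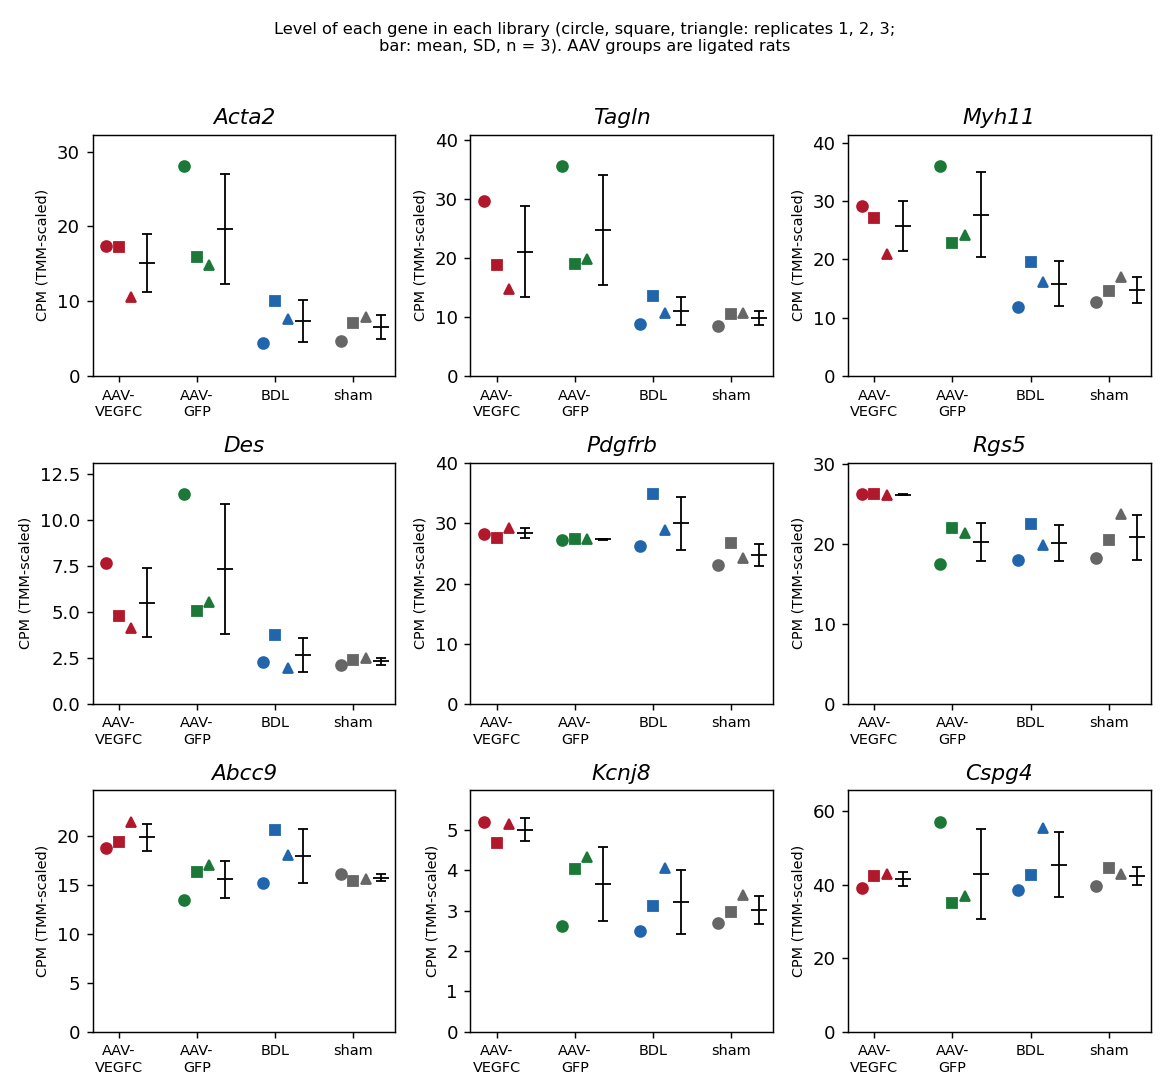
CPM of each of the 9 genes (vertical axes, from 0) in the 12 libraries, with groups from left to right AAV-VEGFC, AAV-GFP, BDL and sham; points are libraries and bars the group mean with its SD (n = 3). For Acta2, Tagln, Myh11 and Des all 6 vector libraries lie above all 6 others, and for Pdgfrb, Rgs5, Abcc9, Kcnj8 and Cspg4 they do not.

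In the comparison of AAV-GFP with BDL, which addresses what a vector and its injection add to ligation, 3 of the 9 genes rose and none fell at an adjusted p under 0.05 (edgeR quasi-likelihood test, Benjamini-Hochberg over 12850 genes), where 0.988% of all tested genes were called higher and 5.2% lower. The log2 fold change was 1.42 ± 0.34 (SE) for Acta2 (adjusted p = 0.0318), a 2.67-fold higher level. Des rose by 1.46 ± 0.36 (adjusted p = 0.0347) and Tagln by 1.18 ± 0.29 (adjusted p = 0.0388). Myh11 had 0.80 ± 0.22 and missed the threshold (adjusted p = 0.0557). These 4 genes were also the members whose AAV-GFP and BDL libraries did not overlap, all higher, as were 18.2% of all tested genes. None of the 5 pericyte genes was called, with log2 fold changes of -0.13 ± 0.10 for Pdgfrb, 0.01 ± 0.12 for Rgs5, -0.20 ± 0.12 for Abcc9, 0.18 ± 0.23 for Kcnj8 and -0.08 ± 0.18 for Cspg4, and all of their libraries overlapped. The 95% interval of Rgs5 ran from -0.26 to 0.27 and that of Pdgfrb from -0.35 to 0.08, whereas that of Acta2 ran from 0.67 to 2.16. The median log2 fold change was 1.30 over the 4 contractile and filament genes, -0.08 over the 5 pericyte genes and 0.01 over all tested genes. This split by role was chosen with earlier results of these data known, so the medians describe it and do not test it.

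The calls of this comparison depended on single libraries. None of the 3 genes was called without AAV-GFP 1 (859 genes in all), BDL 1 (386), BDL 3 (459) or sham 2 (592). Acta2 alone was called without AAV-GFP 3 (413), sham 1 (584) or sham 3 (568). Without AAV-GFP 2 (415) or BDL 2 (423), 2 of the 3 were called. Myh11 joined the 3 without AAV-VEGFC 1 (2945 genes called in all), with DESeq2 (1485) and with limma voom (4687). Over all 21 alternatives the adjusted p of Acta2 ranged from 0.000667 to 0.115, that of Des from 0.00136 to 0.138 and that of Tagln from 0.0015 to 0.159, and their fold changes kept their sign. Without AAV-GFP 1, AAV-VEGFC 1 and sham 2 together the same 3 genes were called, where 3646 genes were called in all, against 795 with all libraries.

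**Figure D2:**
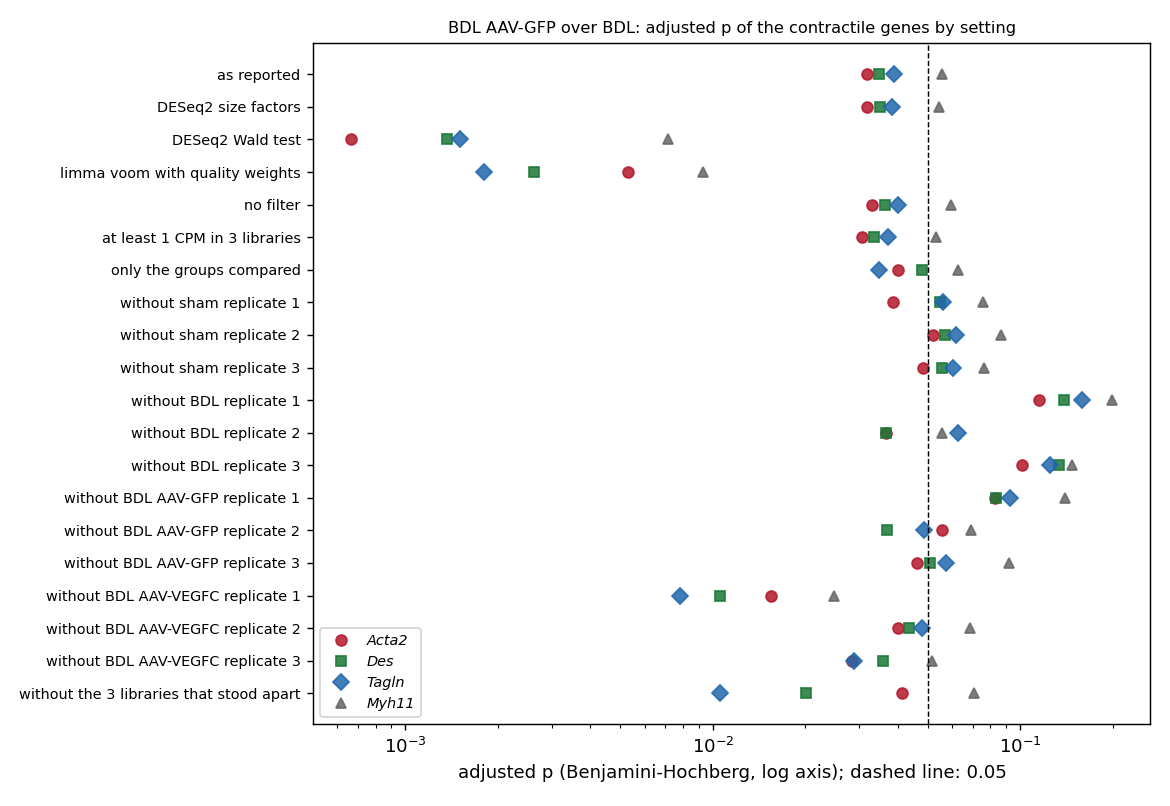
Adjusted p (horizontal log axis, dashed line at 0.05) of Acta2, Des, Tagln and Myh11 for AAV-GFP over BDL, as reported and under other ways of fitting the counts or choosing libraries. A fit with a block by replicate number is not drawn and is given in the closing sections. Points right of the line were not called: all 4 genes lie there without AAV-GFP 1, BDL 1, BDL 3 or sham 2.

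In AAV-VEGFC against BDL the same 4 genes were higher by a little less, and 0 of the 9 genes passed, where 9.93% of all tested genes were called in either direction. The log2 fold change was 1.04 ± 0.34 for Acta2 (adjusted p = 0.0732), 1.04 ± 0.35 for Des (adjusted p = 0.0837), 0.94 ± 0.29 for Tagln (adjusted p = 0.0642) and 0.70 ± 0.22 for Myh11 (adjusted p = 0.0658). Rgs5 had 0.38 ± 0.12 (adjusted p = 0.0675) and Kcnj8 0.63 ± 0.23 (adjusted p = 0.0948). For these 6 genes all AAV-VEGFC libraries lay above all BDL libraries, as for 14.6% of all tested genes, and the unadjusted p was under 0.05, as for 29.2% of all tested genes in either direction. DESeq2 called the 6 genes, among 2362 genes in all, and limma voom with quality weights called 2 (Myh11 and Rgs5), among 2488. With edgeR 3 were called without AAV-GFP 1 (Des, Tagln and Myh11), among 1473 genes in all. Without AAV-VEGFC 3 it called 2 (Tagln and Myh11), among 1282. Pdgfrb (-0.08 ± 0.10), Abcc9 (0.15 ± 0.12) and Cspg4 (-0.13 ± 0.18) overlapped between these groups.

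Taking both vector groups together against BDL, all 4 contractile and filament genes rose and no pericyte gene passed in edgeR, where 3.53% of all tested genes were called higher and 9.04% lower. Acta2 rose by 1.23 ± 0.31 on the log2 scale (adjusted p = 0.0244), Des by 1.25 ± 0.32 (adjusted p = 0.0276), Tagln by 1.06 ± 0.26 (adjusted p = 0.0245) and Myh11 by 0.75 ± 0.20 (adjusted p = 0.0293). These were the 4 members whose groups did not overlap, all higher, as for 10.1% of all tested genes. Among the pericyte genes Kcnj8 had the largest value, 0.41 ± 0.20 (adjusted p = 0.196). Limma voom with quality weights called it besides the 4 (0.50 ± 0.17, adjusted p = 0.0349), among 4185 genes in all, while DESeq2 did not. None of the 9 genes was called without BDL 1 (737 genes called in all), without BDL 3 (810) or without the sham libraries (894). With all libraries 1614 genes were called. The highest adjusted p of the 4 genes over the alternatives lay between 0.108 (Acta2) and 0.143 (Myh11). The labels record no batch. What the vector, the injection or a batch shared by the vector libraries contributed cannot be told apart.

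**Figure D3:**
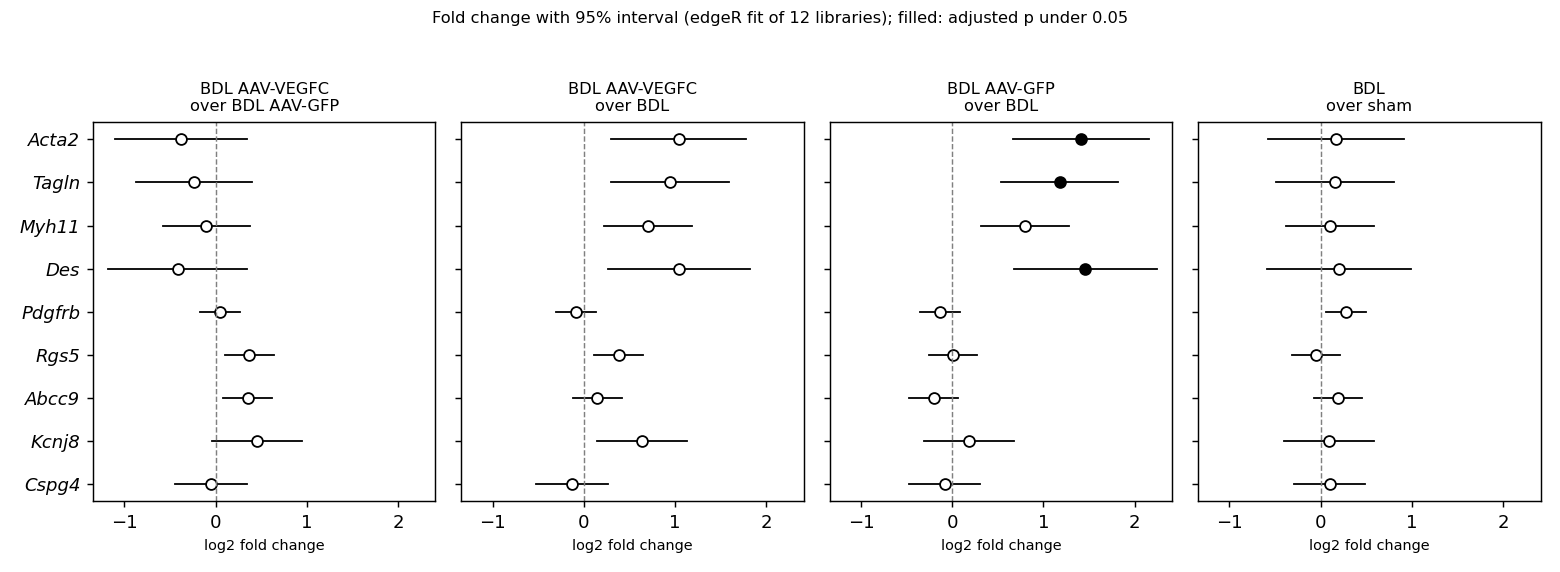
Log2 fold change (horizontal axes) with its 95% interval for the 9 genes in 4 comparisons, from left to right AAV-VEGFC over AAV-GFP, AAV-VEGFC over BDL, AAV-GFP over BDL and BDL over sham; filled points have an adjusted p under 0.05. The 3 filled points are Acta2, Tagln and Des in AAV-GFP over BDL, where the intervals of the 4 contractile and filament genes lie above 0 and those of the 5 pericyte genes include 0.

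The pericyte genes varied less between libraries, and for Rgs5 and Kcnj8 the AAV-VEGFC libraries lay above the other 9, as for 1.27% of all tested genes. Pdgfrb stood at 28.2, 27.6 and 29.2 CPM in AAV-VEGFC libraries, 27.2, 27.5 and 27.4 CPM in AAV-GFP libraries, 26.3, 34.9 and 28.9 CPM in BDL libraries and 23.1, 26.8 and 24.2 CPM in sham libraries. BDL 2 was the highest and sham 1 the lowest. Rgs5 stood at 26.3, 26.2 and 26.1 CPM in AAV-VEGFC libraries, 17.5, 21.9 and 21.3 CPM in AAV-GFP libraries, 18.03, 22.5 and 19.9 CPM in BDL libraries and 18.3, 20.5 and 23.8 CPM in sham libraries. The 3 AAV-VEGFC libraries nearly coincided above the other 9, and AAV-GFP 1, the highest library for every contractile gene, was the lowest for Rgs5. Abcc9 stood at 18.8, 19.4 and 21.4 CPM in AAV-VEGFC libraries, 13.4, 16.2 and 16.95 CPM in AAV-GFP libraries, 15.1, 20.6 and 17.98 CPM in BDL libraries and 16.1, 15.4 and 15.6 CPM in sham libraries. AAV-GFP 1 was again the lowest, and BDL 2 fell among the AAV-VEGFC libraries. Kcnj8, its channel partner, stood at 5.20, 4.67 and 5.14 CPM in AAV-VEGFC libraries, 2.61, 4.03 and 4.33 CPM in AAV-GFP libraries, 2.49, 3.10 and 4.06 CPM in BDL libraries and 2.70, 2.98 and 3.39 CPM in sham libraries. All AAV-VEGFC libraries lay above the other 9. Cspg4 stood at 39.2, 42.4 and 43.0 CPM in AAV-VEGFC libraries, 57.1, 34.9 and 37.0 CPM in AAV-GFP libraries, 38.5, 42.7 and 55.3 CPM in BDL libraries and 39.7, 44.6 and 43.0 CPM in sham libraries. AAV-GFP 1 was its highest and AAV-GFP 2 its lowest library, so its widest spread lay inside a single group. The highest library exceeded the lowest 6.32-fold for Acta2, 5.79-fold for Des, 4.21-fold for Tagln and 3.04-fold for Myh11, and between 1.50-fold (Rgs5) and 2.08-fold (Kcnj8) for the pericyte genes.

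AAV-VEGFC against AAV-GFP compares the 2 vectors, which by their labels differ in the gene they carry. Vegfc, the gene named by the label, stood at 2.65, 3.29 and 3.85 CPM in AAV-VEGFC libraries, 3.65, 2.83 and 3.52 CPM in AAV-GFP libraries, 1.95, 2.44 and 1.51 CPM in BDL libraries and 2.31, 2.36 and 2.56 CPM in sham libraries. The libraries of the 2 vector groups overlapped, with a log2 fold change of -0.03 ± 0.21 (adjusted p = 0.992), so the counts do not separate the libraries labelled AAV-VEGFC from those labelled AAV-GFP by this gene. Whether reads of the carried gene would be counted as rat Vegfc is not given in the labels, and the groups are named by their labels throughout. Of the 9 genes 0 passed, where 0.00778% of all tested genes (1 gene) were called. The count over all tested genes was 22 without AAV-GFP 1, 9 without AAV-VEGFC 1 and 1193 without AAV-GFP 1, AAV-VEGFC 1 and sham 2 together, with 0 of the 9 genes called in each. DESeq2 and limma voom called 0 of the 9 as well, and 2 of the 9 had an unadjusted p under 0.05, as did 4.37% of all tested genes. These were Rgs5, with a log2 fold change of 0.37 ± 0.12, and Abcc9, with 0.35 ± 0.12, each at an adjusted p of 0.948. Pdgfrb (0.05 ± 0.10), Rgs5, Abcc9 and Kcnj8 (0.45 ± 0.22) were higher in all 3 AAV-VEGFC libraries than in all 3 AAV-GFP libraries, as were 3.29% of all tested genes. The 4 contractile and filament genes had negative values, -0.38 ± 0.33 for Acta2, -0.41 ± 0.35 for Des, -0.24 ± 0.29 for Tagln and -0.10 ± 0.22 for Myh11, with overlapping libraries and 95% intervals that for Acta2 ran from -1.11 to 0.35. Without AAV-GFP 1, AAV-VEGFC 1 and sham 2, Myh11 turned to 0.04 and Cspg4, at -0.05 ± 0.18 with all libraries, to 0.25.

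Ligation without a vector changed none of the 9 genes detectably. In BDL against sham 0 of the 9 passed in edgeR, DESeq2 and limma voom, where 0.109% of all tested genes were called, and 1 of the 9 had an unadjusted p under 0.05, where 5.9% of all tested genes did. That gene was Pdgfrb, with a log2 fold change of 0.28 ± 0.10 (adjusted p = 0.682) and overlapping libraries. The contractile genes lay at 0.17 ± 0.34 for Acta2, 0.16 ± 0.29 for Tagln, 0.10 ± 0.22 for Myh11 and 0.20 ± 0.36 for Des. Their 95% intervals were wide, from -0.58 to 0.91 for Acta2, and that of Rgs5 (-0.05 ± 0.12) ran from -0.31 to 0.22. No member had groups that did not overlap, whereas 25% of all tested genes did.

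AAV-VEGFC against sham combines ligation, injection and vector, and 5 of the 9 genes rose, where 7.98% of all tested genes were called higher and 10.6% lower. They were the 4 contractile and filament genes, Acta2 with a log2 fold change of 1.21 ± 0.34 (adjusted p = 0.0326), Des with 1.25 ± 0.36 (adjusted p = 0.0346), Tagln with 1.10 ± 0.30 (adjusted p = 0.0274) and Myh11 with 0.80 ± 0.22 (adjusted p = 0.0296), and the channel pore gene Kcnj8 with 0.73 ± 0.23 (adjusted p = 0.0462). In 8 of the 9 genes, Cspg4 excepted, the AAV-VEGFC libraries lay above all sham libraries, as for 18.9% of all tested genes. Rgs5 (0.33 ± 0.12, adjusted p = 0.075), Abcc9 (0.34 ± 0.12, adjusted p = 0.074) and Pdgfrb (0.20 ± 0.10, adjusted p = 0.182) did not pass in edgeR. DESeq2 called 7 of the 9, Rgs5 and Abcc9 besides the 5, among 3476 genes in all. Limma voom called 6, Abcc9 besides the 5, among 3368. None of the 9 was called without AAV-VEGFC 1 (2964 genes called in all), sham 1 (983), sham 2 (1365) or sham 3 (1059). Without AAV-VEGFC 2, 2 of the 9 (Des and Tagln) were called, among 3205. The call of Kcnj8 ended under 12 of 21 alternatives. A test for any difference among the 4 groups called Acta2 (adjusted p = 0.0179), Des (0.0189), Tagln (0.019) and Myh11 (0.0269) and none of the 5 pericyte genes (adjusted p from 0.104 for Rgs5 to 0.938 for Cspg4), where 13.7% of all tested genes were called. With limma voom it also called Kcnj8. It called 0 of the 9 genes without sham 1 (937 genes called in all) and 2 without sham 2 (1133) or sham 3 (972).

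Summed over the 4 contractile and filament genes, the level was 83.8, 68.0 and 50.3 CPM in AAV-VEGFC libraries, 111, 62.7 and 64.2 CPM in AAV-GFP libraries, 27.4, 46.8 and 36.3 CPM in BDL libraries and 27.9, 34.5 and 37.9 CPM in sham libraries. Summed over the 5 pericyte genes, it lay between 118 and 125 CPM in AAV-VEGFC libraries, 105 and 118 CPM in AAV-GFP libraries, 100.4 and 126 CPM in BDL libraries and 99.9 and 110.2 CPM in sham libraries. The pericyte sum thus overlapped between the vector and the other libraries, and the contractile sum did not. As the split was chosen with earlier results of these data known, the sums describe it and do not test it. The ratio of the contractile to the pericyte sum within a library was 0.403 to 0.712 in AAV-VEGFC libraries, 0.5998 to 0.942 in AAV-GFP libraries, 0.272 to 0.378 in BDL libraries and 0.279 to 0.345 in sham libraries. In bulk tissue, more cells of a type and more RNA per cell cannot be told apart.

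Genes of other vessel cells moved in the same libraries. The 15 measured endothelial genes summed to 846 to 930 CPM in AAV-VEGFC libraries, 782 to 861 CPM in AAV-GFP libraries, 503 to 669 CPM in BDL libraries and 463 to 516 CPM in sham libraries, and none of them was at 0 in any library. Of these 15, 8 rose and none fell in both vector groups against BDL, where 3.53% of all tested genes were called higher and 9.04% lower. The 8 were led by the tight junction gene Cldn5 (0.98 ± 0.12, adjusted p = 0.000363) and the angiopoietin receptor gene Tek (0.61 ± 0.09, adjusted p = 0.00141). The median log2 fold change of the list was 0.39. The 11 fibroblast and meninges genes summed to 240 to 288 CPM in AAV-VEGFC libraries, 252 to 379 CPM in AAV-GFP libraries, 229 to 335 CPM in BDL libraries and 184 to 241 CPM in sham libraries, with AAV-GFP 1 the highest, and 0 of 11 passed against BDL. The 9 skeletal muscle genes in the files, Acta1 among them, summed to 15.39 to 18.996 CPM over all libraries, with up to 4 of them at 0 in a library. Ckm, the muscle creatine kinase, was at 0 in 11 of 12 libraries. The part of endothelial and fibroblast RNA in the contractile gene result was not tested.

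**Figure D4:**
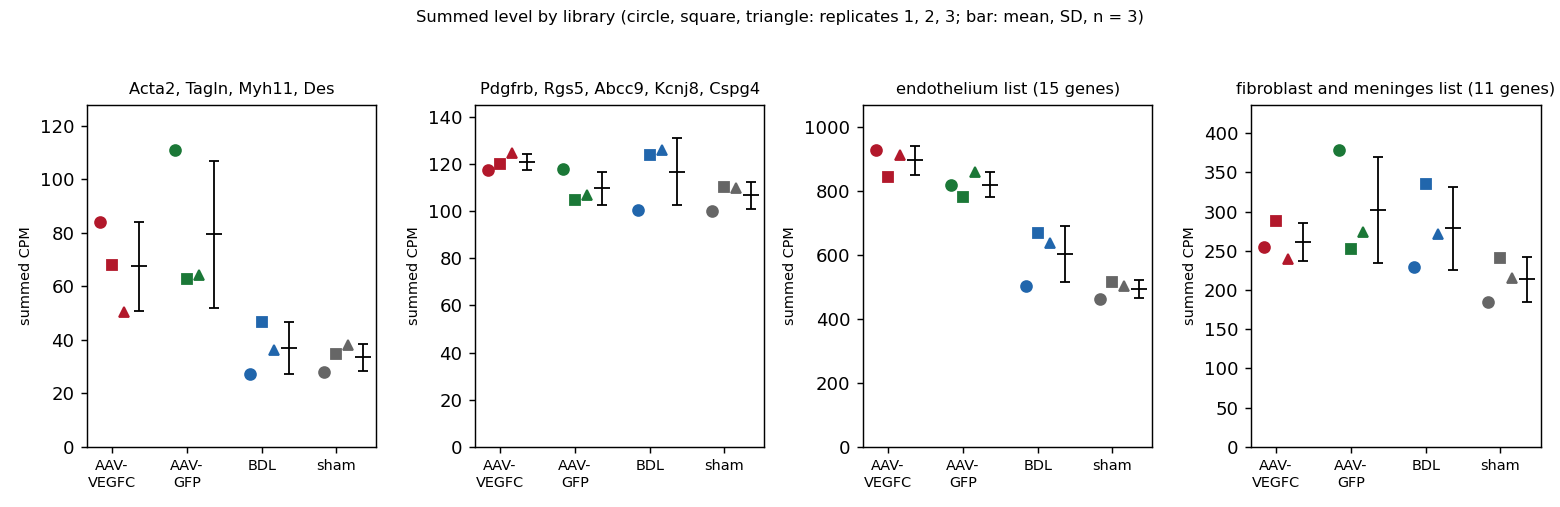
Summed CPM (vertical axes, from 0) of the 4 contractile and filament genes, the 5 pericyte genes, 15 endothelial genes and 11 fibroblast and meninges genes in each library, with groups from left to right AAV-VEGFC, AAV-GFP, BDL and sham and bars for the mean and SD (n = 3). The contractile and endothelial sums of all 6 vector libraries lie above those of the BDL and sham libraries, and the pericyte and fibroblast sums overlap.

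Other contractile genes of smooth muscle moved in part with the 4 named above. Over 18 further genes of this kind the median in both vector groups against BDL was 0.30 on the log2 scale, against 0.01 for all tested genes. Of the 18, 3 rose and none fell, where 3.53% of all tested genes were called higher and 9.04% lower. They were Csrp1, a LIM protein of smooth muscle that other brain cells also make (0.44 ± 0.08, adjusted p = 0.00356), Tpm2, a tropomyosin (0.74 ± 0.17, adjusted p = 0.0157), and Myl9, a myosin regulatory light chain (0.83 ± 0.23, adjusted p = 0.0354). Csrp1 passed under all 21 alternatives, Tpm2 lost its call without BDL 1 or BDL 3, and Myl9 lost its call under 11. Tpm2 stood at 10.1 to 14.2 CPM in AAV-VEGFC libraries, 10.8 to 16.3 CPM in AAV-GFP libraries, 6.11 to 8.91 CPM in BDL libraries and 7.02 to 7.77 CPM in sham libraries, so that vector and other libraries did not overlap. Csrp1 and Tpm2 were the 2 of 18 called in AAV-GFP against BDL, where 0.988% of all tested genes were called higher and 5.2% lower. The same 2 were called in AAV-VEGFC against BDL, where 9.93% were called in either direction. Tpm2 and Myl9 were those called in AAV-VEGFC against sham, where 7.98% were called higher and 10.6% lower. In AAV-VEGFC against AAV-GFP and in BDL against sham 0 of 18 were called. Cnn1, the contractile protein calponin, had 123 reads in AAV-GFP 1 and between 4 and 35 in each of the other 11 libraries, and its difference in both vector groups against BDL did not pass (1.63 ± 0.81, adjusted p = 0.205). Actg2, the smooth muscle actin of the gut, had 98 reads in AAV-GFP 1 and at most 22 elsewhere. The actin genes share much of their coding sequence and reads could be split among them, so Acta2 is reported with that limit: Actc1 was at 0 in every library and Acta1 lay between 11.02 and 14.2 CPM.

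In both vector groups against BDL, 22 further genes of pericyte and mural identity had a median log2 fold change of 0.20. The median of all tested genes was 0.01, and 19 of the 22 had positive values. Of the 22, 1 rose and none fell past the threshold, where 3.53% of all tested genes were called higher and 9.04% lower. It was Gja4, a gap junction gene of arterial endothelium and mural cells (0.54 ± 0.16, adjusted p = 0.0477), and its call ended under 13 of 21 alternatives. Gja4 stood at 2.88, 3.41 and 2.66 CPM in AAV-VEGFC libraries, 2.15, 2.32 and 2.31 CPM in AAV-GFP libraries, 1.84, 1.64 and 1.89 CPM in BDL libraries and 1.25, 1.16 and 1.41 CPM in sham libraries. The 4 groups did not overlap, and in AAV-VEGFC against sham it rose by 1.23 ± 0.18 (adjusted p = 0.00137), a call kept under all 21 alternatives. Vtn, the vitronectin gene that pericytes express strongly in brain, passed in that comparison too (0.52 ± 0.15, adjusted p = 0.0337) and lost its call under 8. Gja4 and Vtn were the 2 of 22 called there, where 7.98% of all tested genes were called higher and 10.6% lower. Of the 5 tested genes for platelet-derived growth factors and the receptor Pdgfra, none passed against BDL, and Pdgfb, the ligand of Pdgfrb, fell in AAV-VEGFC against sham (-0.31 ± 0.10, adjusted p = 0.0476), a call that ended under 13 of 21. The other KATP channel genes, Kcnj11 (0.18 ± 0.17) and Abcc8 (-0.35 ± 0.16), did not pass in both vector groups against BDL.

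Among 7 tested regulators of contractile genes, Klf4, a factor known to repress smooth muscle genes, rose in both vector groups against BDL by 1.18 ± 0.21 on the log2 scale (adjusted p = 0.00455), under all 21 alternatives. It stood at 22.7, 22.4 and 25.8 CPM in AAV-VEGFC libraries, 15.5, 15.2 and 17.2 CPM in AAV-GFP libraries, 5.31, 11.6 and 8.86 CPM in BDL libraries and 10.7, 16.3 and 14.2 CPM in sham libraries. BDL libraries were the lowest apart from BDL 2, which lay above sham 1, and AAV-GFP and sham libraries overlapped. Srf itself had -0.03 ± 0.05 (adjusted p = 0.761) and Myocd, at most 0.625 CPM in any library, 0.12 ± 0.46 (adjusted p = 0.902). In AAV-VEGFC against sham Srf fell by 0.24 on the log2 scale (SE 0.06, adjusted p = 0.0178), a call that ended without any 1 of the 3 sham libraries and when only the groups compared were fitted. Srf stood at 71.8 to 76.9 CPM in AAV-VEGFC libraries, 74.7 to 80.0 CPM in AAV-GFP libraries, 74.9 to 80.2 CPM in BDL libraries and 86.3 to 87.9 CPM in sham libraries. The BDL libraries thus also lay below the sham libraries, with no call in BDL against sham.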

How the data were processed

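Per the labels, RNA was extracted from frozen rat brain with Trizol and made into libraries with a TruSeq kit. Per the submitters' processing notes, FastQC, Trimmomatic 0.36, HISAT2 and featureCounts were used with build rn6, and nothing here states the annotation, settings or strandedness. What the authors deposited were raw, unnormalized read counts per gene symbol, as a table of 12 libraries and 11 single files whose values equal it, and 0 columns were left unused. Groups came from sample titles. No pair of libraries within a group agreed within sampling noise (chi-square per degree of freedom at least 11.6). Nothing but the design text ties libraries to animals, so p-values measure the spread between libraries.

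From these counts edgeR 4.0.16 under R 4.3.3 computed TMM factors and CPM, kept 12850 genes with filterByExpr, and fitted group means to the 12 libraries together in 1 quasi-likelihood model. Comparisons share libraries, AAV-GFP and AAV-VEGFC being set against the same BDL libraries. A gene was called at a Benjamini-Hochberg adjusted p under 0.05 over all tested genes. Each SE is the log2 fold change divided by the square root of F. Tests were first run on simulated counts with known changes. Alternatives were DESeq2 1.42.0 size factors and its own test, limma 3.58.1 voom with quality weights, no filter, at least 1 CPM in 3 libraries, the compared groups alone, a replicate block, an adjusted p under 0.1, each library left out, and 3 libraries left out together. Counts for the gene lists under these were added after seeing the data.

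The 9 genes, their split by role and the lists were chosen with earlier results of these data known. Named besides the 9 were genes of each list past the threshold (at most the 5 with the smallest p, otherwise the 1 with the smallest) and the genes most like Acta2 and Pdgfrb across libraries. Others, such as Cnn1, Actg2, Srf, Myocd, Ckm, Kcnj11 and Abcc8, were named after their values were seen. Promoter sequences are from RefSeq, build GRCr8, where 6 of the 9 genes matched. Python 3.11.15 and matplotlib 3.10.9 drew the figures.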

Additional observations from a re-analysis of the deposited data

How the results depend on the processing

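Each fold change of the 9 genes in 6 comparisons was recomputed under 21 alternatives, which gave 1134 values, of which 999 kept direction and side of the threshold, 69 lost a call, 31 gained one and 35 changed sign, none of these 35 for a gene called with all libraries. The number of the 9 genes called was 3 in AAV-GFP against BDL, 0 with a replicate block, and 0 to 4 with a library left out. It was 0 in AAV-VEGFC against BDL (of 1276 genes called in all), 6 with DESeq2's test (of 2362) or at an adjusted p under 0.1 (of 2353) and 2 with limma voom (of 2488). It was 2 without AAV-GFP 1, AAV-VEGFC 1 and sham 2 (of 3123), and 0 to 3 with a library left out. It was 5 in AAV-VEGFC against sham (of 2394), 7 with DESeq2's test (of 3476) or at an adjusted p under 0.1 (of 3722) and 6 with limma voom (of 3368). It was 3 with a replicate block (of 1708) or the compared groups alone (of 702), and 0 to 5 with a library left out. It was 4 in both vector groups against BDL (of 1614), 5 with limma voom (of 4185), 0 with the compared groups alone (of 894), and 0 to 4 with a library left out. The test of any difference called 4 (of 1766 genes called in all), 5 with limma voom (of 6627), and 0 to 4 with a library left out. In BDL against sham and in AAV-VEGFC against AAV-GFP 0 were called under every alternative. Fewer libraries in a fit did not always mean fewer calls. In AAV-GFP against BDL the count over all tested genes was 795 with all libraries, 2945 without AAV-VEGFC 1 and 386 without BDL 1. The cause of these changes was not tested.

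The replicate numbers did not pair the libraries: deviations of same-numbered libraries correlated at -0.13 to 0.07, and 0 of 18 pairs exceeded 0.1. With the replicate block, the calls were Acta2, Des and Tagln (3) in both vector groups against BDL, 3 in the test of any difference, and 0 in AAV-VEGFC against BDL, AAV-VEGFC against AAV-GFP and BDL against sham.

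Signs changed as follows. Without AAV-GFP 1, AAV-VEGFC 1 and sham 2, AAV-VEGFC against AAV-GFP gave 0.042 for Myh11 and 0.25 for Cspg4. In the same fit AAV-VEGFC against sham gave 0.046 for Cspg4, and both vector groups against BDL gave 0.035 for Abcc9. With limma voom on all 12 libraries, Cspg4 had 0.18 in AAV-VEGFC against AAV-GFP and 0.0098 in AAV-VEGFC against sham. Abcc9 had 0.038 with it in both vector groups against BDL. With single libraries left out, log2 fold changes in BDL against sham ranged from -0.12 to 0.43 for Acta2, -0.12 to 0.38 for Des, -0.020 to 0.30 for Tagln, -0.077 to 0.27 for Myh11, -0.14 to 0.056 for Rgs5, -0.11 to 0.25 for Kcnj8 and -0.064 to 0.21 for Cspg4. In AAV-GFP against BDL they ranged from -0.064 to 0.099 for Rgs5 and -0.34 to 0.084 for Cspg4. In AAV-VEGFC against AAV-GFP they ranged from -0.72 to 0.051 for Des, -0.56 to 0.11 for Tagln, -0.23 to 0.13 for Myh11 and -0.18 to 0.20 for Cspg4. In AAV-VEGFC against BDL they ranged from -0.17 to 0.031 for Pdgfrb and -0.24 to 0.034 for Cspg4, and in AAV-VEGFC against sham from -0.085 to 0.0083 for Cspg4. In both vector groups against BDL they ranged from -0.20 to 0.0074 for Pdgfrb, -0.14 to 0.079 for Abcc9 and -0.24 to 0.059 for Cspg4.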

Other observations

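Genes whose pattern over the 12 libraries was most like that of Acta2 were first its own kind. Likeness was the root-mean-square difference of z-scored log2 CPM, among 12849 other tested genes, and it is a description with no test. Myh11 was the nearest of all (0.145) and Tagln the next (0.262), and Des ranked 8. Outside the 9 genes the nearest were Mgp, the matrix Gla protein of arterial smooth muscle (0.263), Acvrl1, the endothelial receptor of bone morphogenetic protein signals (0.264), Bmx, a kinase of arterial endothelium (0.284), Cfb, complement factor B (0.340), and Vim, the filament vimentin (0.348). Acvrl1 averaged 15.1 ± 0.97 CPM in AAV-VEGFC libraries, 15.3 ± 1.52 CPM in AAV-GFP libraries, 11.5 ± 0.81 CPM in BDL libraries and 11.5 ± 1.27 CPM in sham libraries (SD, n = 3 each). Vim averaged 85.7 ± 5.89 CPM in AAV-VEGFC libraries, 96.0 ± 23.8 CPM in AAV-GFP libraries, 62.9 ± 19.1 CPM in BDL libraries and 46.3 ± 5.74 CPM in sham libraries (SD, n = 3 each).

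Pdgfrb had no neighbour as near. The closest were Sfrp1, a secreted Wnt antagonist (0.529), Foxc2, a forkhead factor of vessels and meninges (0.555), Tceal7 (0.597), Lamb2, the laminin beta chain of vessel basement membranes (0.612), and Mboat1 (0.617). The mural receptor gene Notch3 ranked 12 and Abcc9 ranked 136 in likeness to Pdgfrb. Red cell genes rose with ligation alone: 5 of 5 passed in BDL against sham, where 0.109% of all tested genes were called. In both vector groups against BDL 5 of 5 were positive, with a median log2 fold change of 0.67. Of these, only Hbb-b1 was called (0.71, adjusted p = 0.0424), and its call ended under 9 of 21 alternatives. The summed level of red cell genes was 947 to 1319 CPM in AAV-VEGFC libraries, 816 to 906 CPM in AAV-GFP libraries, 433 to 863 CPM in BDL libraries and 117 to 158 CPM in sham libraries. Olig2, a factor of oligodendrocyte precursors, which also make Cspg4, rose in both vector groups against BDL (0.76 ± 0.14, adjusted p = 0.00449), as the only call among 9 listed genes of these cells, whose median log2 fold change was 0.0035, while Cspg4 had -0.11 ± 0.15 (adjusted p = 0.692).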
